A study of Homo sapiens with 4 samples.

Results

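This account describes the adenosines that were listed as N6-methyladenosine (m6A) in both ascorbic acid libraries and in neither control library, with at least 50 reads in each ascorbic acid library. These 2090 ascorbate-only sites were 3.06% of the 68368 sites that both ascorbic acid lists hold at that depth, and the 4 lists together hold 218950 sites. Another 6618 of the 68368 were in 1 control list and 59660, called shared sites here, were in both. Of the ascorbate-only sites, 879 (42.1%) had a partner, meaning a further listed site on the same strand at a distance of exactly 6 nt, and 1211 had none, and the 2 kinds are reported apart. The sites were chosen by their listing in the 4 libraries and their reads with ascorbic acid, so their own levels are a description and carry no test.

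The libraries came from wild-type HEK293T cells, an established human embryonic kidney line that carries the SV40 large T antigen. There were 2 control libraries and 2 libraries from cells given ascorbic acid for 36 h, starting 24 h after seeding, with the medium changed every 6 h. The sources used here give neither the dose nor any vehicle of the control, and the labels do not say whether replicates were separate cultures, so every p-value measures only the spread between these 4 samples. They were made by GLORI, a chemistry of glyoxal and nitrite that turns unmethylated adenosine into inosine, which sequencing reports as G, and leaves m6A to be reported as A. The level of a site is the percent of its A and G reads that carry A, and the adapter joined to the cDNA carried 6 random bases.

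m6A is written on messenger RNA by a methyltransferase complex built around METTL3 and METTL14, mostly in the contexts AAC and GAC, and it is densest near stop codons and in last exons. FTO and ALKBH5 remove methyl groups from adenosine and belong to the iron- and 2-oxoglutarate-dependent dioxygenases, a family for which ascorbate can keep the iron in its reduced form. The TET enzymes, which oxidise 5-methylcytosine in DNA, belong to the same family. YTH domain proteins bind the mark.

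The control lists held 132989 and 144171 sites, the ascorbic acid lists 135205 and 143518, with summed A and G reads between 22592887 and 28562744 per library. No list held a site under 15 reads, 5 A reads or a level of 10%, or with an authors' adjusted p above 0.00404. A site that is not listed in control may lie outside any of these limits there, and its control level is not known. The unconverted share of adenosine, as a median over genes, was 2.51% and 3.88% in control 1 and 2 and 2.72% and 2.87% in ascorbic acid 1 and 2. Of 8 marker genes of HEK293T cells, 7 carried listed sites (PAX2 did not), against 1 of 11 markers of blood, liver, endothelium, fibroblasts and adult kidney (COL1A1).

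The deposited lists hold no bases around a site, so sequences were read from the RefSeq promoter windows of build GRCh38.p14, which run from 250 bases before to 50 bases from each gene's start. These windows held 80 ascorbate-only sites, and the site was A in all 80. The following stretches, 5′ to 3′ with the listed site in capitals, are chosen examples and do not show how often each context occurred. The first 2 lie in genes of an m6A eraser and of a writer subunit, and the next 3 are the windows' 3 sites in AAC or GAC. The last 3 belong to the windows of a cell cycle kinase, an RNA-binding protein and a ribosomal protein. The sites of MRFAP1 and RPL9 lie 5 and 19 bases before the annotated start of the gene.
ALKBH5 (chr17:18183830-18183850, plus strand): ggagcccgctAaggagcggcg
CBLL1 (chr7:107744132-107744152, plus strand): ttccgctcccActgtgctctg
ALG14 (chr1:95072940-95072960, minus strand): gtagttgtgaActttgacagc
TRIM71 (chr3:32817987-32818007, plus strand): tgagtcggtgActcccccacc
MRFAP1 (chr4:6640670-6640690, plus strand): gacggccgggActccattttg
CDC7 (chr1:91500848-91500868, plus strand): agtgttgcgcAggcgcatccg
HNRNPK (chr9:83980600-83980620, minus strand): cgaacgagaaAggaggagggc
RPL9 (chr4:39458931-39458951, minus strand): cttacgcgatAcaagtacgta

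The site was searched for as the middle base of AAC or GAC on its own strand. Only 3 of the 80 ascorbate-only sites (3.75%) stood in that context, against 295 of 1483 shared sites in such windows (19.9%) and 18.8% of the shared sites under a level of 20%. Of all adenosines in the windows, 10.6% stand in AAC or GAC, and 99.5% of the windows hold at least 1 such triplet. More often the site was the middle base of CAG or TAG, a context not set in advance. That held for 34 of the 80 (42.5%), against 31.3% of the shared sites and 15.5% of all adenosines in the windows. The site was the first base of the gene at 14 of the 80 (17.5%), among them CBLL1 above, and at 35.9% of the shared sites. Mean levels over the 2 libraries at the 80 sites were low, between 10.2% and 20.8%. These windows cover the start of genes only, and 3.83% of the ascorbate-only sites lie in one, so the contexts of the rest were not read.

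A second set of stretches shows the pairs of listed sites 6 nt apart that lie whole inside such a window, with both sites in capitals. The ascorbate-only site is the 5′ one in COMMD4, CIAO2B, RPL31 and ELF4 and the 3′ one in INO80B and HPRT1.
COMMD4 (chr15:75336045-75336071, plus strand): gcgggaccggAaaaagAaattcccggg
CIAO2B (chr16:66934372-66934398, minus strand): cacgcctgctAggatcAgcggtggtgg
RPL31 (chr2:101002231-101002257, plus strand): gcgacccggaAgttgtActtgcaactg
ELF4 (chrX:130110697-130110723, minus strand): ctcacctggtAtttgcAtctctccctc
INO80B (chr2:74455077-74455103, plus strand): tgtcccaaccAtttctAgtcccctttc
HPRT1 (chrX:134460155-134460181, plus strand): gcttctcctcAgcttcAggcggctgcg
In HPRT1, which encodes a purine salvage enzyme, the 3′ site had 12.6% and 15.9% with ascorbic acid and was not listed in control. The 5′ site had 17.5% in control 2 and 15.2% and 18.8% with ascorbic acid, and was not listed in control 1. In RPL31, a ribosomal protein gene, the 5′ site had 10.5% and 10.1% with ascorbic acid, and the 3′ site was listed in control 2 alone, at 11.1%. Neither pair thus separates treated from control libraries as pairs, since 1 site of each was also listed in control 2.

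Most ascorbate-only sites stood just above the 10% limit of the lists. Their median level was 13.2% in ascorbic acid 1 and 12.4% in ascorbic acid 2, against 30.9% in both libraries for the shared sites. Of the 2090, 1813 had a mean level under 20%, 123 lay between 20% and 50%, and 154 were at 50% or more. The share of eligible sites that were absent from both control lists fell with the level, from 17.4% (95% exact binomial interval 16.3 to 18.7) at 10 to 12%, through 9.42% (8.81 to 10.0) at 12 to 15% and 2.71% (2.42 to 3.03) at 15 to 20%, to 0.468% (0.356 to 0.604) at 20 to 30%. It was 0.881% (0.727 to 1.06) at 50 to 80% and 0.740% (0.532 to 1.00) at 80 to 100%. These intervals cover counting error only. The division at 50% was made after the levels were seen.

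**Figure D1:**
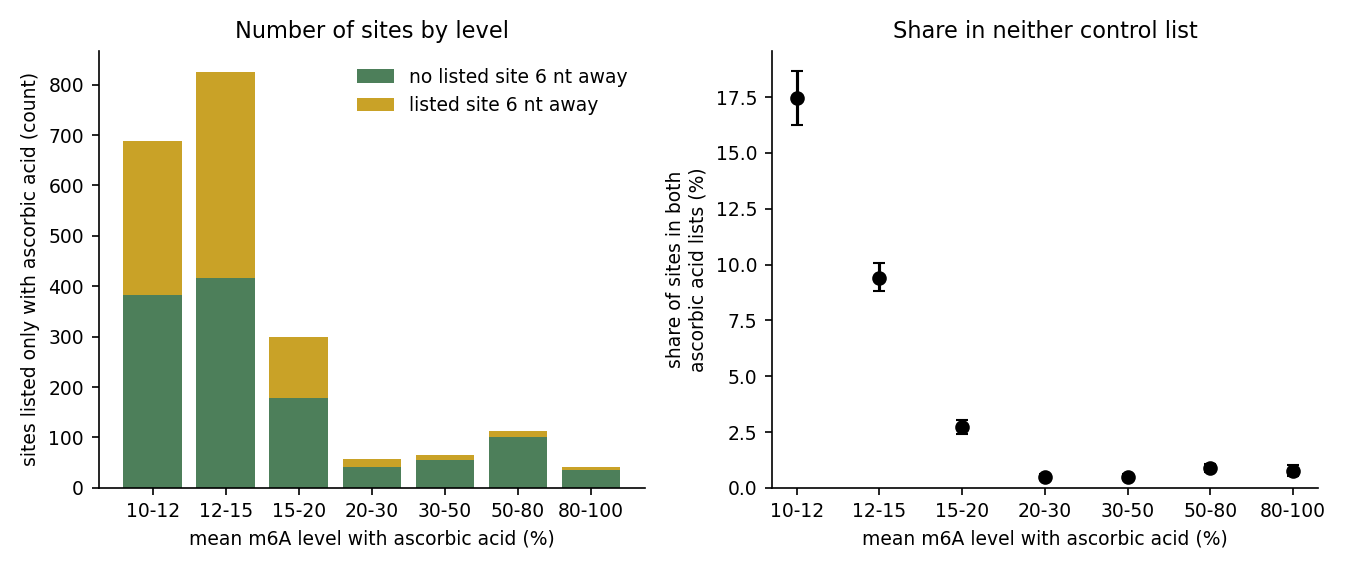
Left, the number of ascorbate-only sites by mean m6A level over the 2 ascorbic acid libraries, stacked by whether another listed site lies 6 nt away. Right, the share of all sites of both ascorbic acid lists with at least 50 reads that were in neither control list, with 95% exact binomial intervals: it is 17.4% at 10 to 12% and under 1% in each bin from 20% up.

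The opposite set, sites of both control lists with at least 50 reads that neither ascorbic acid list holds, was larger, at 3922 of 65098 (6.02%). Its median level in control was 13.2%, and 3569 of its sites were under 20%. It held 21 sites at 50% or more, where the ascorbate-only set held 154. Only 3.06% of it had a listed site 6 nt away, where the ascorbate-only set had 42.1%. Thus both sets were mostly low, and they differed in their number, in the 6 nt pairs and in the high-level sites.

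Within the ascorbate-only sites the 2 libraries differed by a median of 1.88 percentage points. For the shared sites the mean chi-square between the 2 ascorbic acid libraries was 1.05 per site, close to counting error. The set depended strongly on the number of libraries asked to agree. Without ascorbic acid 1 the rule would give 9334 sites and without ascorbic acid 2 it would give 9487, while without control 1 it would give 5444 and without control 2 it would give 5354. The read minimum also matters: the 205 sites just inside it (50 to 54 reads in the shallower library) had a median level of 14.5%, and the 220 just outside it (45 to 49 reads) had 16.0%.

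The exact spacing of 6 nt was the clearest shared feature of the low-level sites. At every other distance from 1 to 20 nt, between 1.58% and 3.40% of the ascorbate-only sites had another listed site, against 42.1% at 6 nt. Among shared sites 4.38% had a listed site at 6 nt, and among sites of 1 control list 30.0% did. The share was 46.1% for the ascorbate-only sites under 20% and 11.7% (18 of 154) for those at 50% or more. For the sites at 50% or more the share at the other distances ran from 0% to 13.0%, so 6 nt did not stand out among them.

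**Figure D2:**
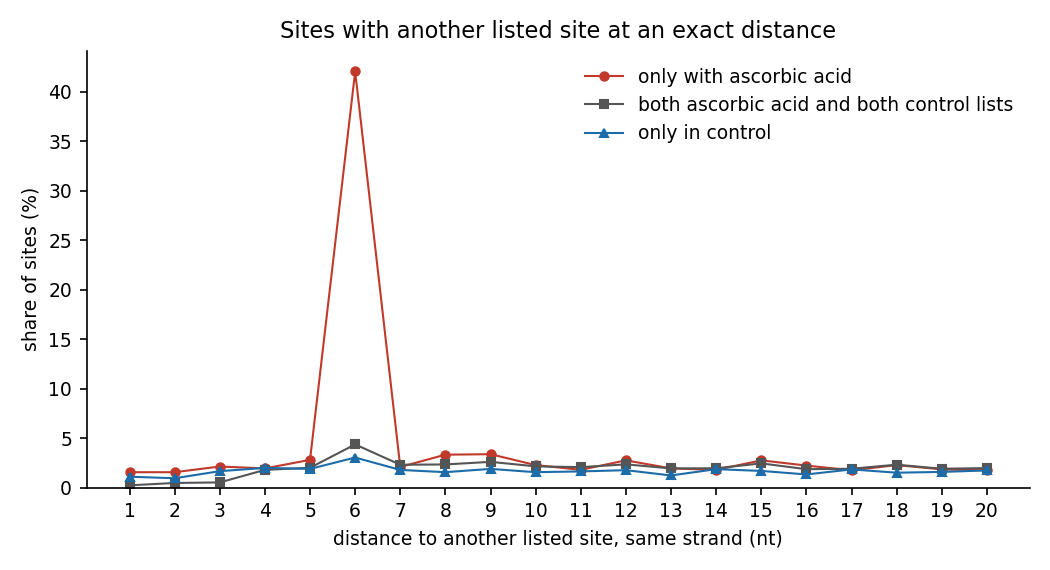
Share of sites (%) that have another listed site at an exact distance of 1 to 20 nt on the same strand, for ascorbate-only sites, shared sites and sites only in control. The ascorbate-only sites reach 42.1% at 6 nt and stay between 1.58% and 3.40% elsewhere.

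The 879 sites formed 716 distinct pairs of sites 6 nt apart. In 172 pairs both sites were ascorbate-only, and in 544 one was, as the 5′ site in 277 and as the 3′ site in 267. Neither site was in a control list in 428 pairs. Where both sites were in both ascorbic acid lists, the 2 sites of a pair had like levels (medians 13.4% for the 5′ and 13.4% for the 3′ site), with a median difference of 1.15 percentage points and nearly the same reads (median ratio 0.996). The level of one site followed that of the other across those of these pairs that lay below 50% (Pearson r = 0.50 over 374 pairs, a description, since the sites of a pair share reads and gene). In 242 pairs the other site was listed in control 2, and in 95 it was listed in control 1. The spacing equals the number of random bases in the adapter, and whether the pairs are related to the adapter was not tested.

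Pairs at 6 nt were not confined to the ascorbic acid libraries. Within each list alone, 3.21% of the sites of control 1 and 5.12% of those of control 2 had another site of the same list 6 nt away, against 8.18% in ascorbic acid 1 and 5.34% in ascorbic acid 2. At 5 nt and 7 nt the same share was between 1.61% and 1.81% in all 4 lists. Control 2 thus lay beside ascorbic acid 2, and ascorbic acid 1 and control 1 were the extremes, so over whole lists the groups did not overlap but differed by little between their nearest members. Among the sites under 20% with at least 50 reads, the class of most ascorbate-only sites, the share was 5.69% in control 1, 11.7% in control 2, 18.5% in ascorbic acid 1 and 11.5% in ascorbic acid 2. There the groups overlapped. Without ascorbic acid 1 the share of ascorbate-only sites with a 6 nt pair would be 19.7%, and without control 1 it would be 22.5%.

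The 5 pair sites with the most reads were all near the limit. In RPS7, a protein of the small ribosomal subunit, the site at chr2:3576523 had 12.03% of 8924 reads and 10.0% of 10162 reads with ascorbic acid. The site 6 nt upstream had 12.8% and 10.3% there, and it was also listed in control 2, at 10.8%. In CSE1L, an export factor for importin alpha, the site at chr20:49068784 had 12.8% and 10.8% and its 3′ partner had 13.7% and 11.2%, with neither in a control list. In CENPV, a centromere protein gene, the site at chr17:16342685 had 13.1% and 10.99%, and its partner had 12.9% and 10.9%. In each of these genes the level in ascorbic acid 1 was above that in ascorbic acid 2 by about 2 points.

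HSPA4, which encodes a chaperone of the Hsp110 family, had 12.1% and 10.1% at chr5:133089678, and its partner was listed in ascorbic acid 1 alone, at 11.8%. SSRP1, a subunit of the histone chaperone FACT, was the only gene of these 5 with the partner in all 4 lists. Its ascorbate-only site at chr11:57326157 had 12.4% and 10.6%. The partner, 6 nt to the 5′ side, had 12.5% and 15.5% in the control libraries and 20.7% and 18.1% in the treated ones. Over the 45 pairs whose partner was in all 4 lists, the partner's median level was 12.5% and 16.2% in the control libraries. It was 19.4% and 17.3% in the treated ones. These partners, that of SSRP1 included, were picked through a site listed only with ascorbic acid, and the sites of a pair share reads. The difference between the groups can therefore follow from the choice of sites, and no effect of treatment is read from it.

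The genes with the most pair sites were PTPRF, a receptor tyrosine phosphatase, and GPR108, with 4 each, then DAPK1, FAM171A1 and KMT2A with 3 each. All 4 GPR108 sites lay within 1113 nt and had levels of 10.7 to 12.2%. The PTPRF sites had levels of 11.99 to 14.4%, 1 unpaired site included. In both genes no ascorbate-only site came near 20%.

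The 154 sites at 50% or more differed from the rest in several features. They lay in 122 named genes, apart from 2 in no named gene, 136 of them had no 6 nt pair, and 41 were at 80% or more. Among the unpaired ones the highest was in TET2, the 5-methylcytosine dioxygenase, at chr4:105275429, 4374 nt before the annotated 3′ end of the gene. It had 98.1% of 52 reads in ascorbic acid 1 and 93.9% of 82 reads in ascorbic acid 2 (mean 96.0% ± 2.95, SD, n = 2). A second TET2 site, 72 nt upstream, had 84.9% and 87.8%. Neither control list held either site, although the site 3 nt downstream of the first was in all 4 lists, with 73 and 71 reads and levels of 21.9% and 16.9% in control. Its levels with ascorbic acid were 17.0% and 14.6%. The positions in TET2 were therefore flanked by listed sites in control, and what the control reads held at the 2 sites themselves is not in the lists.

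ADAMTS1, which encodes a secreted metalloprotease, had 3 ascorbate-only sites within 27 nt on chr21. Their levels were 71.4% and 70.7% at 26837852, 47.9% and 45.5% at 26837835, and 92.9% and 95.8% at 26837825. The next site downstream, 48 nt away, was in all 4 lists with 89 and 76 reads in control. CHSY1, a chondroitin sulfate synthase gene, had 92.5% and 95.6% at chr15:101177728, with further ascorbate-only sites 42 and 78 nt upstream at 29.7% ± 0.85 and 17.6% ± 0.85 (SD, n = 2). The site 96 nt downstream of the first had 95.3% and 93.8% in the control libraries and 95.2% and 92.4% in the treated ones. In both genes a short run of neighbouring sites was absent from the control lists together, between sites that at least 1 control list held. In CHSY1 the run was not complete in the treated libraries either. Sites 16 and 70 nt upstream of the first were listed in ascorbic acid 1 alone, at 68.6% and 84.9%. The nearest control-listed site on the upstream side of CHSY1, 127 nt away, was in control 1 alone, at 10.3%.

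**Figure D3:**
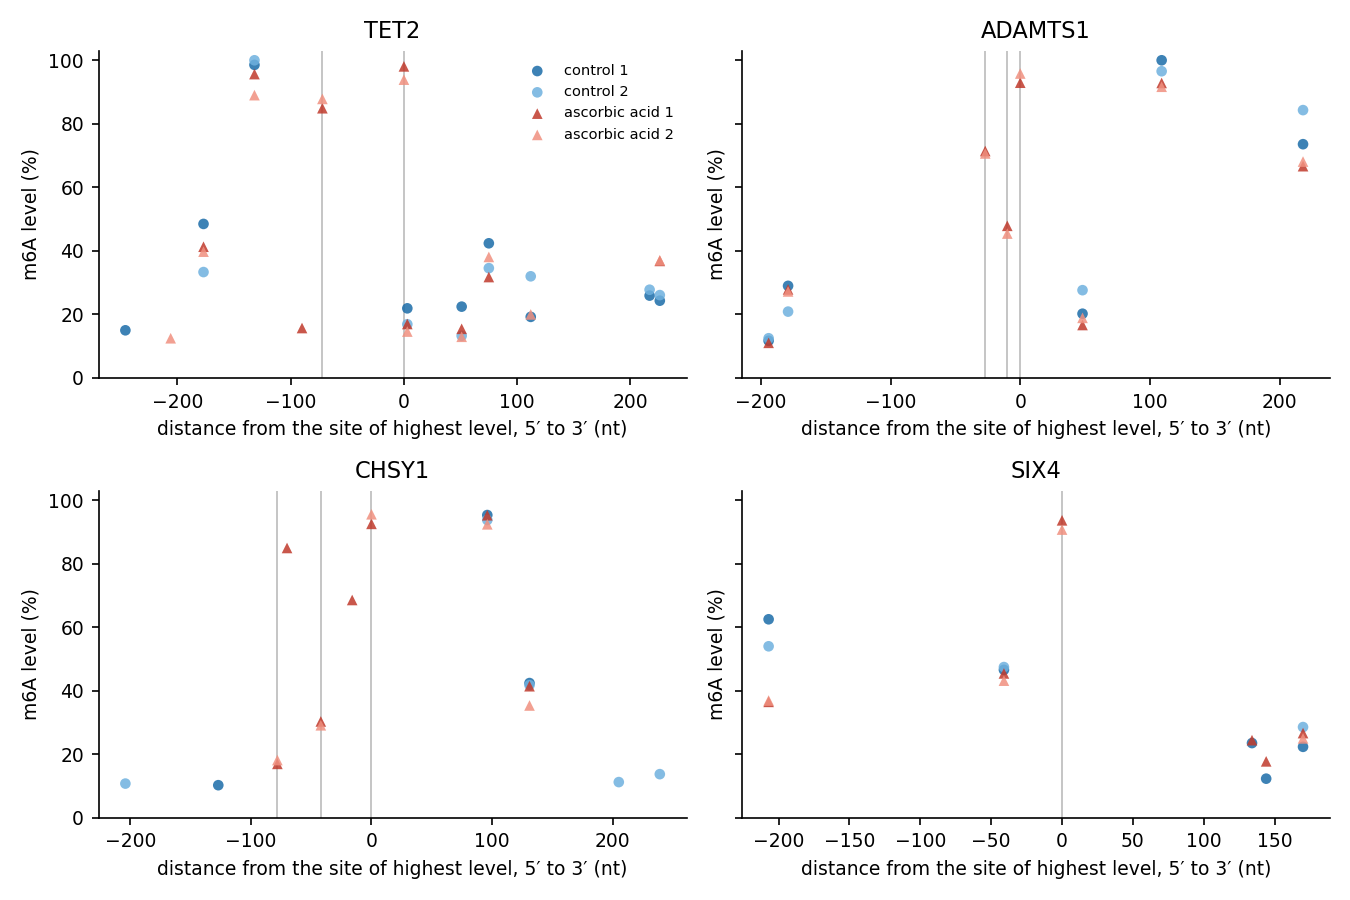
m6A level (%) of all listed sites around the ascorbate-only site of highest level in TET2, ADAMTS1, CHSY1 and SIX4, against the distance from it in nt, 5′ to 3′. Circles are the control libraries, triangles the ascorbic acid libraries, and vertical lines mark ascorbate-only sites, which have triangles at 17.0% to 98.1% and no circle, while sites on both sides have circles.

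The other unpaired sites of highest level also had a site of both control lists within 100 nt on at least 1 side. SIX4, a homeobox transcription factor gene, had 93.7% and 90.7% at chr14:60720193, and the site 41 nt upstream had 46.6% and 47.5% in control. STK17A, a serine/threonine kinase gene, had 92.9% and 89.8% at chr7:43624903, and the site 42 nt upstream had 104 and 92 control reads. FRMD6, a FERM domain gene, had 92.3% and 90.5% at chr14:51727888, with the nearest site of both control lists 82 nt downstream. A site 67 nt upstream of it was listed in control 1 alone, at 81.3%. One 81 nt upstream was listed in control 1 and ascorbic acid 1 only, at 59.3% and 31.4%. SPPL3, an intramembrane protease gene, had 91.1% and 91.0% at chr12:120764580, and 358 and 444 control reads lay at a site 26 nt away.

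HS2ST1, a heparan sulfate sulfotransferase gene, had 91.7% and 89.4% at chr1:87104692, 33 nt from a site with 75 and 58 control reads. DAPK1, a calmodulin-dependent kinase gene, held the most ascorbate-only sites of any gene, 7, of which 2 were at 50% or more. These 2 lay 21 nt apart on chr9, at 87707048 with 87.5% and 89.7% and at 87707069 with 87.0% and 80.5%. In each of these genes, from TET2 to DAPK1, the 2 ascorbic acid libraries lay within 7 points of each other at the site of highest level.

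Of the 18 high-level sites with a 6 nt pair, those in 4 of the 5 genes named here had a partner that was ascorbate-only and high as well. FAM171A1 had 96.6% and 95.5% at chr10:15212797 and 77.4% and 63.7% at the site 6 nt upstream. KMT2D, a histone H3 lysine 4 methyltransferase gene, had 82.9% and 87.5% at chr12:49038689 and 72.9% and 79.2% at its pair. CAMKK1, a kinase gene, had 87.5% and 86.4% at chr17:3860946 and 84.7% and 86.5% at its pair. LPAR3, a receptor for lysophosphatidic acid, had 81.2% and 75.9% at chr1:84865835 and 65.2% and 68.2% at its pair. In these 4 genes neither site of the pair was in a control list.

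GAS1, a growth arrest protein of the cell surface, was the exception among the 5. Its site at chr9:86946871 had 91.8% of 319 reads and 93.4% of 332 reads with ascorbic acid. The site 6 nt downstream was in all 4 lists, with 345 and 393 reads and levels of 77.7% and 76.6% in the control libraries and 73.8% and 72.4% in the treated ones. Control reads were thus listed 6 nt from a site at over 90% that no control list held.

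Over all 154, 62 had a site of both control lists within 50 nt, and at 57 of these that site had at least 50 reads in both control libraries. A total of 97 had another site of both ascorbic acid lists within 20 nt, and at 68 of them (70.1%) the nearest such site was in no control list either. Of the 17182 shared sites at 50% or more, 4411 had such a site within 20 nt, and among these 4411 that share was 1.65%. For these 68 sites the absence from control thus extended over a short stretch with at least 1 further site.

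Single lists also lacked high-level sites. Of the sites at 50% or more, with at least 50 reads, in the 3 other lists, 0.276% (42 sites) were missing from control 1, 0.492% from ascorbic acid 1 and 0.604% from ascorbic acid 2, but 5.38% (862 of 16025, interval 5.03 to 5.74) were missing from control 2. Whether the control 2 list as used here is complete is not known, so absence from it, on which the ascorbate-only sites and the 154 high-level sites rest, may be the absence of a row. Of the 18369 sites at 50% or more in both ascorbic acid lists, 17182 were in both control lists, 977 in control 1 alone, 56 in control 2 alone and 154 in neither. Without control 1 the count of 154 would thus be 1131, and without control 2 it would be 210. It would be 256 without ascorbic acid 1 and 313 without ascorbic acid 2. In the genes of the 154 sites the median unconverted share was 3.58% in control 1, 5.14% in control 2 and 3.59% and 3.68% with ascorbic acid. The part of that share in the missing sites was not tested.

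**Figure D4:**
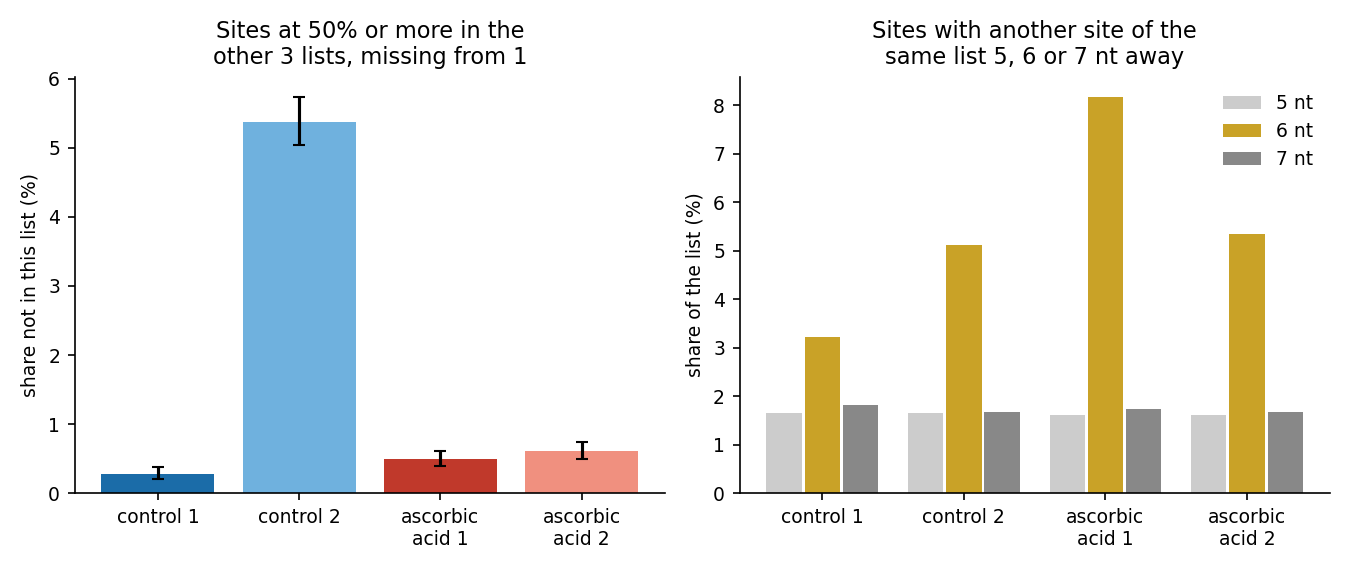
Left, for each library, the share (%) of sites at 50% or more in the 3 other lists that its own list lacks, with 95% exact binomial intervals: control 2 stands at 5.38% and the others under 1%. Right, the share (%) of each list with another site of the same list 5, 6 or 7 nt away, where the 6 nt bars run from 3.21% in control 1 to 8.18% in ascorbic acid 1.

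By position, ascorbate-only sites lay farther from the annotated 3′ end of genes than shared sites. Inside protein-coding genes 45.6% of them were at least 5000 nt of genomic distance before that end, against 32.9% of the shared sites, and 15.8% were within 1000 nt, against 24.4%. Of the sites with a 6 nt pair 52.4% lay at 5000 nt or more, and their median was 5398 nt. Of the unpaired sites 5.05% were within the first 50 nt of a gene, against 0.528% of the paired and 1.78% of the shared sites. No transcript models were used, so exon, intron and UTR were not assigned. Sites in no named gene made up 8.37%, and none lay in a RefSeq miRNA hairpin.

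The sites were spread over 1482 named genes, of which 1156 had 1 site and 249 had 2. Most unpaired sites in 1 gene were found in TBC1D16, a RAB GTPase-activating protein gene, and NRDE2, a partner of the helicase MTR4, with 5 each. DAPK1, CHSY1 and ANKHD1-EIF4EBP3 had 4 each. In TBC1D16 the 6 sites, 1 with a pair included, spanned 76897 nt and had levels of 11.5 to 47.4%, and 42 other sites of that gene were in all 4 lists with at least 50 reads. The ascorbate-only sites of TBC1D16 thus stood among many sites that all libraries listed, whereas GPR108 had 1 such site beside its 4.

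Sites in the genes that write, remove and read m6A were counted against the 3.06% of all eligible sites that were ascorbate-only. The writers had 3 among 174 eligible sites. VIRMA, the scaffold subunit of the complex, had 1 on chromosome 8 at 49.1% and 53.8%. CBLL1, a RING domain subunit of the complex, had 19.2% and 12.5% at chr7:107744142, the first base of the gene, shown above. RBM15B, which helps recruit the complex, had 13.3% and 13.6% at a site with a 6 nt pair. Of the 24 eligible sites of the erasers 1 was ascorbate-only, in ALKBH5 at chr17:18183840, with 12.2% of 74 reads and 12.4% of 113 reads, 12 bases after the first base of the gene as shown above. The 82 eligible sites of the 5 YTH readers held none, too few sites to set against a share of 3.06%. ELAVL1 was the only other reader gene with a site, at 14.3% in both libraries.

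Of the genes of dioxygenases that act on nucleic acids, 3 held 5 of 61 eligible sites (8.20%, against 3.06% over all sites). These were TET2 with the 2 high sites above, TET3 at 14.4% ± 0.51, and ALKBH4 with 18.2% ± 1.76 and 21.2% ± 0.21 (SD, n = 2). The JmjC dioxygenases, mostly histone demethylases, held 4 of 199 eligible sites, with KDM6B at 20.0% and 14.1% and KDM3B at 15.6% and 16.7%. Iron handling genes held 9 of 132. FBXL5, the iron-sensing ubiquitin ligase subunit that marks IRP2 for decay, had 3 of these within 17 nt, the highest at chr4:15625521 with 39.6% and 33.3%. SLC25A28, a mitochondrial iron importer gene, had 51.4% and 52.9% at chr10:99611051. The site 45 nt away from it had 73.0% and 80.5% in the control libraries and 27.02% and 26.6% in the treated ones, so control and treated groups did not overlap beside it.

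Collagen hydroxylase and chain genes held 6 of 133 eligible sites, against 3.06% over all sites, all in COLGALT1, a collagen galactosyltransferase gene, and PLOD3, a lysyl hydroxylase gene. The 4 COLGALT1 sites formed 1 run within 46 nt on chr19, at 17581392 (52.7% and 52.3%), 17581398 (31.3% and 27.3%), 17581419 (44.8% and 38.2%) and 17581438 (68.0% and 63.1%). The run in COLGALT1 was again bounded by sites of all 4 lists, 84 nt upstream of the first and 69 nt downstream of the last.

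The other lists held few such sites. RNA decay factors had 9 of 243, with EXOSC2, an RNA exosome subunit, at 69.7% and 68.3% on chr9. The ribosomal proteins had 8 of 161, cholesterol synthesis 6 of 154, with SC5D at 13.2% and 13.0%, the stress response 3 of 145, with DNAJB9, a chaperone of the endoplasmic reticulum, at 82.9% and 82.6%, and the cell cycle 3 of 158, with CDK1 at 10.8% and 12.5%. Antioxidant genes had 2 of 79, in MAFG and SLC7A11, the p53 targets 2 of 129, in POLH and TIGAR, ascorbate transport 1 of 62, in CYB561D2, hypoxia 1 of 139, in HK2, and histone genes 1 of 32, in H2AC6 at 22.2% and 22.5%. The ZNF genes had 34 of 1611, the highest in ZNF629 at 84.4% and 86.0%. Nuclear long noncoding RNAs had 4 of 143, 1 of them in TUG1 at 16.2% ± 0.11 (SD, n = 2). The other 3, of which 2 were at 50% or more, lay in a single gene and were counted only. Most of these shares lie near the 3.06% over all sites, on few sites each.

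Among the unpaired sites with the most reads, those in 3 genes were also low. ZNF90 had 10.8% of 2780 and 10.1% of 2980 reads. Its site, at chr19:20125374, lies beyond the annotated end of the gene at 20121168. The nearest site of both control lists was 134109 nt away. ERGIC1, a gene of transport between endoplasmic reticulum and Golgi, had 12.1% and 10.5%, and EIF1AX, a translation initiation factor gene, had 11.2% and 10.0%.

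Unpaired sites nearest to a deep site of all 4 lists were, besides TET2, in genes with low levels. TRAF3, a signalling adaptor gene, had 10.7% and 11.2% at chr14:102905761, 2 nt from a site with 25.9% and 17.3% in the control libraries and 19.8% and 12.5% in the treated ones. RPS26, a ribosomal protein gene, had 12.8% and 11.5%, 4 nt from a site with 13.8% and 10.8% in control. KCNJ8, a potassium channel gene, had 10.9% and 11.2%, also 4 nt from such a site. HNRNPK, an RNA-binding protein gene whose site is shown above, had 10.0% and 13.1%, 1 nt from a site with 13.4% and 12.3% in control that was listed in ascorbic acid 2, at 10.6%, but not in ascorbic acid 1. At TRAF3, RPS26 and KCNJ8 the level with ascorbic acid differed from the 10% limit by under 3 points.

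Since the ascorbate-only sites themselves have no control values, the measure open to a test was the level at sites of all 4 lists within 50 nt of one, with at least 20 reads in each library. There were 732 such sites, 6 nt partners included. They were picked through sites listed only with ascorbic acid and can share reads with them. Their changes can therefore follow in part from the choice of sites. In control their median level was 36.9% and 38.2%, and ascorbic acid libraries had 31.8% and 31.5%. The group means, 37.5% ± 0.98 and 31.6% ± 0.21 (SD, n = 2), were -5.91 percentage points apart (ascorbic acid minus control). The groups did not overlap, and a two-sided exact permutation test gave p = 0.333, below which 2 against 2 libraries cannot go. Over all 78509 tested sites the difference was -7.04 points. Near the high-level sites (82 sites) the control medians were 46.1% and 46.4%, and those of the ascorbic acid libraries 37.1% and 35.8%. Levels beside ascorbate-only sites were thus lower with ascorbic acid, as they were over all sites.

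**Figure D5:**
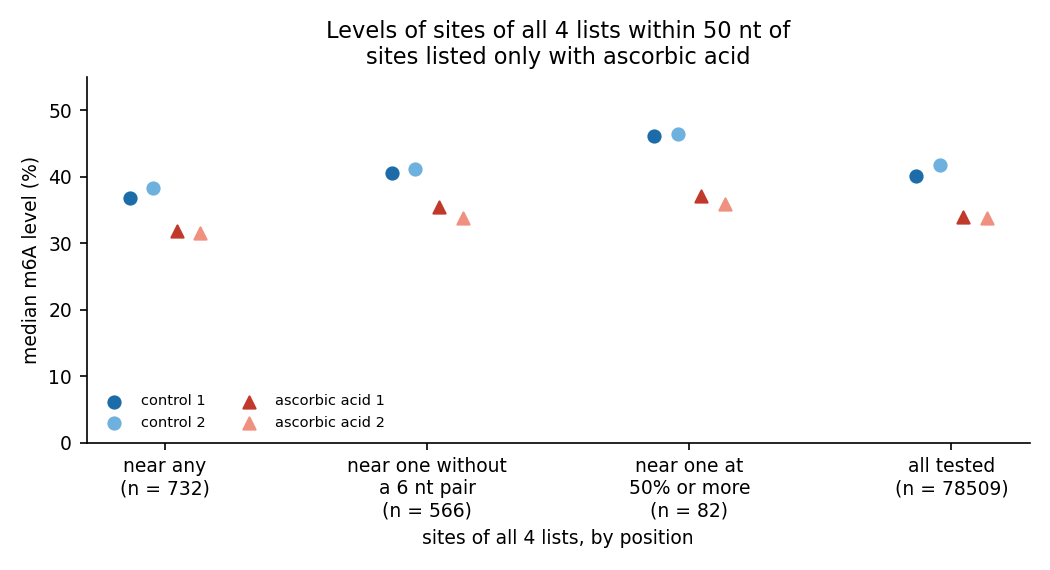
Median m6A level (%) in each library at sites of all 4 lists within 50 nt of an ascorbate-only site, near those without a 6 nt pair, near those at 50% or more, and over all tested sites. Circles are control and triangles ascorbic acid libraries; in each set both triangles lie below both circles, for example at 31.8% and 31.5% against 36.9% and 38.2%.

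By edgeR (quasi-likelihood test of the A against the G reads, Benjamini-Hochberg adjusted p under 0.05 over all tested sites) 25.7% of all 78509 sites fell and 0.22% rose. Of the 732 neighbours 175 fell (23.9%) and 10 rose (1.37%), with a median log2 odds change of -0.37, against -0.41 over all sites. Within 20 nt lay 9 of the 10 rises, where shared reads are most likely, and no effect of treatment is read from them. Of the 566 near unpaired ascorbate-only sites 142 fell and 1 rose. The share that fell within 50 nt was thus near the background. It was 16.1% of the 274 neighbours within 20 nt and 39.0% of the 82 near sites at 50% or more, and these differences from the background were not tested. The count of 175 drops to 106 without ascorbic acid 2, and the 10 rises drop to 2 without control 1 and to 1 without ascorbic acid 1. DESeq2 called 95 falls and 1 rise, and limma on log2 odds 93 and 1.

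The 5 neighbours of smallest p were all falls, and 4 of them are described. CIAO1, a cytosolic iron-sulfur assembly factor, had 84.9% and 87.6% in the control libraries and 42.0% and 43.9% in the treated ones at chr2:96271368 (log2 odds change -3.05, edgeR adjusted p = 1.46e-20). The ascorbate-only site 35 nt from it had 46.4% and 46.6%. In CIAO1 a site that fell thus lay beside one that only the ascorbic acid lists held.

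ENTPD6, a nucleotide phosphohydrolase gene, had 85.6% and 84.8% in control and 48.0% in both ascorbic acid libraries at chr20:25226126. Its ascorbate-only site 35 nt away had 47.3% and 49.2%. KIAA0100 had 74.3% and 72.4% against 22.4% and 21.6% at chr17:28634762, and the ascorbate-only site 8 nt away had 13.1% and 12.8%. OGDH, a subunit of the 2-oxoglutarate dehydrogenase complex, had 69.6% and 67.3% against 17.3% and 21.04% on chr7, and the ascorbate-only site 39 nt away had 14.99% and 17.5%. At none of these 4 sites did a control library overlap an ascorbic acid library, which follows from their choice by smallest p.

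Gene coverage, a value that the lists give for a gene without defining it, was taken here as mean read depth. It was compared because depth bears on whether a site can be listed. With limma on log2 scaled coverage (0.5 added, so fold changes are on that scale), 0.253% of 11848 genes rose and 0.0422% fell. Of 1433 genes with an ascorbate-only site 6 rose (0.419%) and 0 fell. Of the 1433, 202 had an unadjusted limma p under 0.05 in either direction, against 1709 of all 11848 genes. The median log2 change of the 1433 genes was 0.02. Their sites had to pass a read minimum in the ascorbic acid libraries only, which favours genes with more coverage there. Nothing particular to these genes is therefore read from the rises. FBXL5 had a coverage of 128 in each control library and of 211 and 202 in the treated ones (log2 change 0.69, limma adjusted p = 0.0175), and H2AC6 rose by 0.70 on the log2 scale. ALG1L, HSPB8, LGALS3BP and STAT6 also rose, by 0.66, 0.63, 0.58 and 0.52. Without control 1 there were 26 rises and 4 falls, and without control 2 there were 4 rises and 1 fall. The 6 rises became 0 without ascorbic acid 1 and 2 without ascorbic acid 2. No gene with a site at 50% or more was among the 6 rises. Of these 121 genes 22 had an unadjusted limma p under 0.05, to be set beside the 1709 of 11848 over all genes.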

How the data were processed

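Each of the 4 GLORI libraries of HEK293T RNA came as a table of listed sites. Named in the submitters' processing notes are STAR, Trimmomatic 0.39 and the genome build, as GRCh38 and as hg38. No source used here names the site caller. The A and A plus G read counts per site were deposited unscaled by the authors. The level is a fraction deposited by the authors, the A share of those reads, and the recomputed share differed by at most 5e-06. Conversion per gene is also a fraction from the authors. Gene coverage is a signal as deposited, taken as mean depth, with its unit not defined in the sources used here. The p-values and adjusted p-values per site are the authors' own, per the file headers.

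Sites were matched by chromosome, position and strand. For sites of all 4 lists with 20 reads in each, edgeR 4.0.16 gave the main test (quasi-likelihood on A and G reads, library terms, and a term for treatment on A), with DESeq2 1.42.0 and limma 3.58.1 as alternatives. Gene coverage was scaled by the median of ratios and tested with limma, whose p-values, like edgeR's, were adjusted by Benjamini-Hochberg with a threshold of 0.05. Library medians went into an exact permutation test. Software was R 4.3.3, Python 3.11.15, numpy 2.4.6, pandas 2.3.3, scipy 1.17.1 and matplotlib 3.10.9, and the tests were tried on simulated data. Depth limits what a list can hold, and intervals cover counting error only. Of 1482 gene names, 1444 matched a RefSeq symbol and 28 a synonym.

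The sites, the gene lists and the rule for named genes were chosen with earlier results of these data known. Named were, without a 6 nt pair, the 10 sites of highest level, the 5 with the most reads and the 5 nearest to a deep site of all 4 lists, 1 per gene; with a pair, the 5 highest and the 5 with the most reads; the 5 genes with the most sites of each kind; any site in the main m6A enzymes and YTH readers; up to 2 sites per gene list; and the 5 neighbours of smallest p. The named sites in 1 long noncoding RNA on chromosome X were counted but not described, and some named sites of the gene lists are given by gene only. A few items that the rule picked are not reported here. The 50% division, the counts of high-level sites missing from a list, the stretches, the pairs within single lists, and the coverage genes, HPRT1, TET3, ALKBH4, RBM15B and TUG1 as examples were chosen after their values were seen. Same-numbered replicates did not pair (correlation of deviations -0.005 for sites and -0.16 for coverage).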

Additional observations from a re-analysis of the deposited data

How the results depend on the processing

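The count of 2090 sites became 4348, 3242 and 904 with a minimum of 20, 30 and 100 reads, 1122 with the authors' adjusted p at most 0.0001, and 401 and 258 with a level of at least 15% and 20% in both libraries. Leaving out 1 library gave 5354 to 9487. The 154 sites at 50% or more became 476, 248 and 76 with those read minimums and 210 to 1131 with 1 library left out; these alternatives were chosen after seeing the data. The 42.1% with a 6 nt pair became 28.8%, 35.7% and 52.5% with those read minimums, 47.8% with the stricter adjusted p, 20.2% and 13.2% with the higher levels, 13.7% with the control lists alone, and 19.7 to 47.1% with 1 library left out. At 1 to 5 nt the share was 1.58%, 1.58%, 2.15%, 1.96% and 2.82%, and from 7 to 20 nt it was 2.11%, 3.35%, 3.40%, 2.30%, 1.82%, 2.78%, 1.96%, 1.82%, 2.78%, 2.25%, 1.77%, 2.30%, 1.87% and 1.77%. The 185 edgeR calls among neighbours (175 falls, 10 rises) became 96 with DESeq2 (95 and 1), 94 with limma (93 and 1), 53 in a window of 20 nt (44 falls) and 362 in one of 100 nt (352 falls). Over all tested sites DESeq2 called 9663 falls and 16 rises and limma 10187 and 31, where edgeR called 20188 and 173. Without sites that have a 6 nt pair 3 rises were left. With 1 library left out, where a lone library is assumed to vary like the others, there were 113 to 144 calls, 106 to 142 falls and 1 to 8 rises. The difference in medians was -4.49 points within 20 nt and -6.73 within 100 nt, and -6.61 to -5.22 with 1 library left out. A replicate block gave 182 falls and 11 rises among neighbours. The 6 coverage calls became 14 with library totals, 14 with the replicate block and 0 to 30 with 1 library left out. The crossed replicate block, which pairs control 1 with ascorbic acid 2 and was added after seeing the data because same-numbered samples deviated in opposite directions, gave 17. No gene had a coverage under 15, so a minimum of 5 removed none, and minimums of 20 and 50, added later, gave 6 and 4. The cause of these shifts was not tested, apart from windows and read minimums, which change the number of sites. The 5 neighbours of smallest p kept their direction and passed the threshold under all their alternatives (largest adjusted p = 0.00785). Those 5 were chosen by p in the same comparison, which favours such stability. Depth, the 10% limit and the authors' adjusted p bound what is listed, so a level just under 10% in control cannot be told apart from none. A low level above 10% could also go unlisted by its adjusted p.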
